A study of Homo sapiens with 2 samples.

Results

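The genes described here encode the actin cytoskeleton of Caco-2 cells and the transcription factor SRF, which controls many of them, 47 genes in all. They were taken by symbol from a deposited table of 23709 genes, and all 47 were found in it. Caco-2 is a line from a human colorectal adenocarcinoma that can polarize and grow a brush border like an enterocyte. Polyadenylated RNA from Caco-2 cells, all grown in DMEM with serum, penicillin, streptomycin and ciprofloxacin and with no other treatment named, was sequenced in 2 preparations, 1 library each: RNC-mRNA, recovered together with ribosome-nascent chain complexes, and mRNA, taken from total RNA. The comparison asks which mRNAs are found with ribosomes more, or less, than their abundance predicts.

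Actin filaments grow from monomers that profilin delivers and thymosin holds in reserve, are branched by the Arp2/3 complex, capped by capping protein, severed by cofilin and pulled on by non-muscle myosin II. Free actin monomer keeps the coactivators MKL1 and MKL2 (also called MRTF-A and MRTF-B) out of the nucleus. When monomer is used up they join SRF on a DNA element called the CArG box, and genes for actin and its partners are transcribed. In enterocytes these proteins build the microvillar core, the terminal web and the junctional belt.

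With 1 library per preparation there is no replicate check, so nothing below carries a p-value and each difference describes this pair of libraries. The labels do not say whether both preparations came from 1 culture, so a difference between cultures cannot be told apart from a difference in ribosome association. In such bulk RNA, fewer cells of a type and less RNA per cell cannot be told apart either. Levels are RPKM, a read number scaled for gene length and sequencing depth. The translation ratio is the RNC-mRNA level over the mRNA level, each with 0.1 RPKM added, on the log2 scale relative to the median of the 13402 genes with a mean of at least 1 RPKM, called expressed. Intervals in brackets are exact 95% Clopper-Pearson intervals from the smallest whole read numbers that give both RPKM values, relative to the same median. They cover counting error only and treat each read as an independent draw. PCR copies were not told apart by molecular identifiers, so the intervals may be too narrow. The true read numbers may also be larger than the smallest ones used, which would make the intervals too wide. The read totals behind the RPKM values, recovered from those values, were 11083302 for the RNC-mRNA library and 9640364 for the mRNA library.

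The cells carried epithelial markers at high levels in both libraries. Of 11 intestinal epithelial markers, 10 were expressed, with a summed level of 4379 RPKM in the RNC-mRNA library and 4320.4 RPKM in the mRNA library, while KRT20 was at 0.05 RPKM in the RNC-mRNA library and 0.977 RPKM in the mRNA library. Of 15 smooth muscle and fibroblast markers, 9 were expressed, and their list summed to 83.5 RPKM in the RNC-mRNA library and 104.9 RPKM in the mRNA library. The smooth muscle markers were mixed. MYOCD, SYNPO2, ACTG2, MYH11 and DES were not expressed, with MYH11 at 0.195 RPKM in the RNC-mRNA library and 0.389 RPKM in the mRNA library, and DES at 0.281 RPKM in the RNC-mRNA library and 0.692 RPKM in the mRNA library. Smoothelin (SMTN), on the same list, had 19.8 RPKM in the RNC-mRNA library and 18.3 RPKM in the mRNA library. The collagen gene COL1A1 was the most abundant of these markers, at 26.1 RPKM in the RNC-mRNA library and 46.8 RPKM in the mRNA library.

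Because 16 of the members are listed as SRF targets, the stretches upstream of members that hold an intact CArG box are shown first. The translation ratio measures neither SRF binding nor transcription. The motif searched was the CArG box in its exact consensus, which reads the same on both strands, in RefSeq windows (GRCh38.p14) from 250 bases before to 50 bases after each annotated start. Windows were found for 42 of the 47 members. ACTB, PFN2, ARPC1B, TAGLN and MYL9 had none. A box lay in at least 1 window of 7 of the 42 members (16.7%), against 438 of all 27305 genes in the table (1.60%). Counted per window, 9 of 80 member windows held it (11.3%), against 454 of all 35116 windows (1.29%). The members were picked in part as SRF-regulated genes, so this contrast describes the list and is no independent support. With 1 mismatch allowed, the shares were 40.5% of members and 22.3% of all genes with a window. The 200 bases before the start are printed 5′ to 3′ for each of the 7, in the direction of transcription, with the CArG box in capitals:
SRF: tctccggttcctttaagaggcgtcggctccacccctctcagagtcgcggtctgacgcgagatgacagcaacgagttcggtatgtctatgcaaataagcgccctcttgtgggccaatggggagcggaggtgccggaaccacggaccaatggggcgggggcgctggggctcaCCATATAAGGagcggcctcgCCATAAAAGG
ACTG1: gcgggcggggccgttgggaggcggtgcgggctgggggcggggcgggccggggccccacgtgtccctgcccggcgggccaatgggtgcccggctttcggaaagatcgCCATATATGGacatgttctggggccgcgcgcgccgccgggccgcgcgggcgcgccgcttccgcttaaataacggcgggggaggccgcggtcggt
CNN2: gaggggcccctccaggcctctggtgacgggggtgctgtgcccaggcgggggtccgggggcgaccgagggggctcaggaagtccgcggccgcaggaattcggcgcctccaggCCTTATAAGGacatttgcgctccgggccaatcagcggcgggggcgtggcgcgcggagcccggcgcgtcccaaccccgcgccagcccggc
ACTN1: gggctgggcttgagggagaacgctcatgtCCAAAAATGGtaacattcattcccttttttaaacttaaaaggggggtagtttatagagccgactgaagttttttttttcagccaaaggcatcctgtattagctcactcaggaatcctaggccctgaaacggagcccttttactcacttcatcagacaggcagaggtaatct
TPM4: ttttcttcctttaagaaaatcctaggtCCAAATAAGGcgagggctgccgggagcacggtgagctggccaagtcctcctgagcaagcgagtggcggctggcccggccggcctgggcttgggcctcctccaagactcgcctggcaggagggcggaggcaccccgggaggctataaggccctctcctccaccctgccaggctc
FLNA: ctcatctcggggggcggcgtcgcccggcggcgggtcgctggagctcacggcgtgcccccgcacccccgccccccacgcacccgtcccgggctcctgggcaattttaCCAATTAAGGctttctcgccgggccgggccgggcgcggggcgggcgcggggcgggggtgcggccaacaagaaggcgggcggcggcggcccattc
FHL2: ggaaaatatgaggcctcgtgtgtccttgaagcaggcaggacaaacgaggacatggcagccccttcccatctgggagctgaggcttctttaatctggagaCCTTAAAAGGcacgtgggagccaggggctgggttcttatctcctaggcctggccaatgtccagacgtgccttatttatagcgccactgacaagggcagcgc
These stretches lie at chr6:43171069-43171268 (plus strand) for SRF, chr17:81512800-81512999 (minus strand) for ACTG1, chr19:1026408-1026607 (plus strand) for CNN2 and chr14:68977567-68977766 (minus strand) for ACTN1. The others lie at chr19:16067338-16067537 (plus strand) for TPM4, chrX:154374635-154374834 (minus strand) for FLNA and chr2:105438514-105438713 (minus strand) for FHL2. FHL2 had a box at 3 of its 4 annotated starts, and 1 of these is shown. ACTN1 had a box at 1 of its 4 starts, TPM4 at 1 of 3 and SRF at 1 of 2, and the start with the box is shown. SRF, which is known to act on its own promoter, was the member with 2 boxes in 1 window, starting 30 and 10 bases before the start. The single box began 94 bases before the start in ACTG1 and FLNA, 89 bases before it in CNN2, 101 in FHL2, 171 in ACTN1 and 173 in TPM4. The 7 members with a box had a median translation ratio of 0.37, and the 34 expressed members with a window and no box had a median of 0.22. Over all expressed genes with a window, those with a box (157 of 10295) had a median of 0.09 and those without 0.03. The 7 were not alike: SRF stood at 0.63, ACTN1 at 0.45, CNN2 at 0.38, ACTG1 at 0.37, TPM4 at 0.17, FLNA at -0.04 and FHL2 at -0.32. A match is a description of these letters and not a measured binding site.

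Most of the 46 expressed members had a larger share in the RNC-mRNA library than the median gene, by a modest amount. Their median translation ratio was 0.29, or 1.22-fold above the median of all expressed genes, and single members ran from -1.07 to 1.80. Of the 46, 36 lay above the median (78.3%) and 10 below, where all expressed genes split evenly by construction. By counting error alone, 34 members had an interval wholly above the median (73.9%, against 29.6% of all expressed genes) and 9 wholly below (19.6%, against 30.0%).

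A rule of size separates a small number of members from the rest. Of the 46, 7 (15.2%) were at least 1.5-fold above the median, against 7.44% of all expressed genes, and 2 (4.35%) were at least 1.5-fold below, against 19.7%. At 2-fold, 2 members (TAGLN and CFL2, 4.35%) were above, against 1.37%, and 1 (MYH14, 2.17%) was below, against 11.8%. CNN1 was the member that was not expressed.

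Level matters for reading these shares, since the members are abundant and abundant genes lay above the median as a class. The 1552 genes with a mean of at least 50 RPKM had a median ratio of 0.17, and 70.1% of them lay above the median of all expressed genes. Of the 31 members in that range, 25 lay above it (80.6%), with a median of 0.30. Counting intervals lay wholly above it for 24 of the 31 (77.4%), against 58.1% of the 1552, and wholly below it for 5 (16.1%), against 20.0%. At least 1.5-fold above were 3 of these 31 (9.68%, ACTB, PFN1 and TPM1), against 6.12% of the 1552. At least 1.5-fold below was 1 of the 31 (3.23%, GSN), against 2.90%. Against genes of like abundance the shares of these 31 members were therefore nearer to the background, with a median that was still higher (0.30 against 0.17). The less abundant members, among them TAGLN, CFL2 and MYH14, were not set against genes of like abundance.

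**Figure D1:**
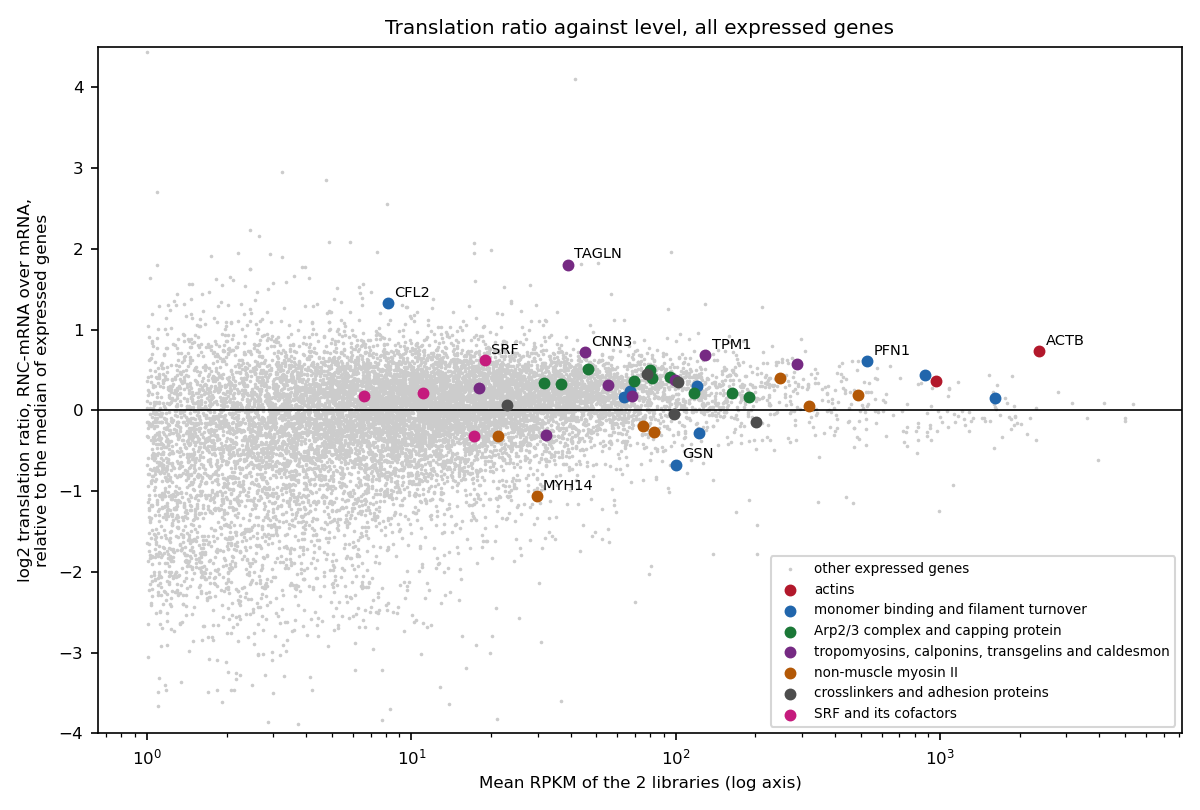
Log2 translation ratio (RNC-mRNA over mRNA, relative to the median of expressed genes, the horizontal line) against the mean RPKM of both libraries on a log axis, with the 13402 expressed genes in grey and the 46 expressed members coloured by role; 77 genes lie outside the plotted range. TAGLN and CFL2 stand above the cloud at their levels, MYH14 and GSN stand low, and most other members lie in a band just above the line.

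Together the 47 members made up 2.50% of the summed RPKM of the RNC-mRNA library (11539 RPKM) and 1.98% of that of the mRNA library (9144 RPKM). The 15 members known to have many processed pseudogenes, whose reads are the least certain, made up 1.99% of the RNC-mRNA sum and 1.53% of the mRNA sum. ACTB alone made up 0.636% of the RNC-mRNA library's summed RPKM and 0.392% of the mRNA library's, and without it the members held 1.86% in the RNC-mRNA library and 1.59% in the mRNA library.

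**Figure D2:**
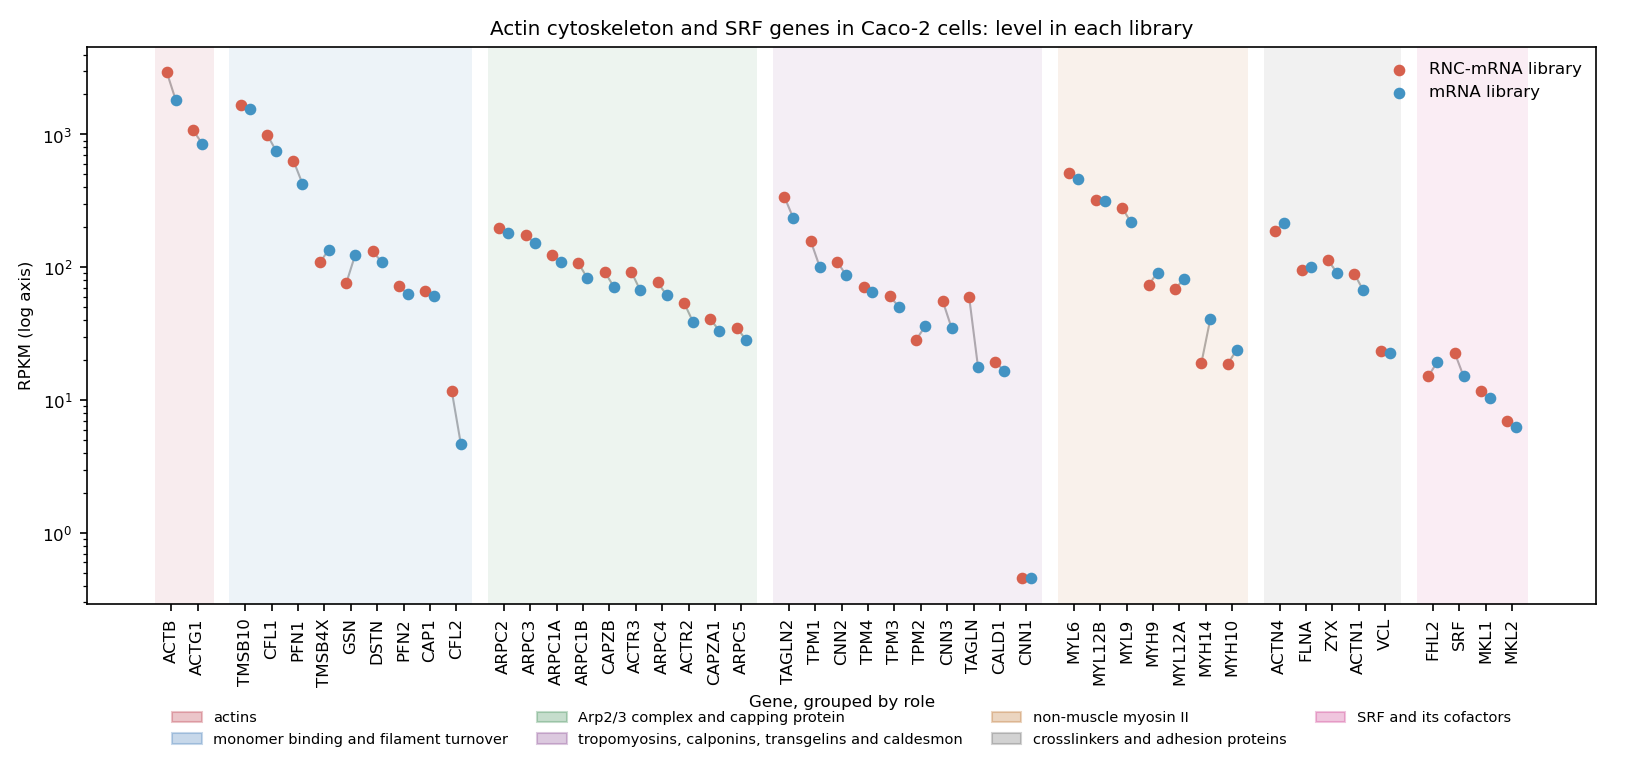
RPKM of each of the 47 members (log axis) in the RNC-mRNA library (left point of each pair) and the mRNA library (right point), grouped by role. Levels run from ACTB, at 2938 RPKM (RNC-mRNA) and 1812 RPKM (mRNA), down to CNN1, at 0.455 RPKM (RNC-mRNA) and 0.458 RPKM (mRNA), and the steepest steps within a pair belong to TAGLN, CFL2 and MYH14.

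Both cytoplasmic actins, the filament subunits themselves, stood above the median. ACTB, which encodes beta-actin, had 2938 RPKM in the RNC-mRNA library and 1812 RPKM in the mRNA library, a ratio of 0.74 (0.72 to 0.76) or 1.67-fold above the median gene. It was the 9th most abundant of all genes in the RNC-mRNA library and the 24th in the mRNA library. ACTG1, which encodes gamma-actin, had 1072 RPKM in the RNC-mRNA library and 854 RPKM in the mRNA library, a ratio of 0.37 (0.34 to 0.40). The intervals of the pair did not overlap, so by counting error beta-actin mRNA was shifted further than gamma-actin mRNA in these libraries. The 2 proteins are almost identical and both genes have many processed pseudogenes, so how the authors' counting split shared reads is uncertain. The POTE genes, which carry an actin-like part, went the other way at low levels. POTEE had 0.682 RPKM in the RNC-mRNA library and 2.32 RPKM in the mRNA library (-1.59), while POTEM stood at -1.20. POTEF, at -1.37, was below the level that counts as expressed, with 0.354 RPKM in the RNC-mRNA library and 1.1 RPKM in the mRNA library. The actin-like gene ACTBL2 was listed at 0 in both libraries.

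Genes that handle monomers and turn filaments over spread widely, from -0.67 to 1.33, with 7 of 9 above the median and a list median of 0.24; TMSB10 and CAP1 fell to the other side when the centre was taken from genes of at least 50 RPKM. Among the cofilin family, which severs filaments, the muscle-type CFL2 stood out. CFL2 had 11.6 RPKM in the RNC-mRNA library and 4.70 RPKM in the mRNA library, a ratio of 1.33 (1.07 to 1.63) or 2.51-fold above the median gene. The widely expressed CFL1 had 996 RPKM in the RNC-mRNA library and 755 RPKM in the mRNA library, at 0.44 (0.40 to 0.48). Destrin (DSTN), the third of the family, was at 0.30 (0.21 to 0.39). Its processed copy DSTNP2, counted separately in the table, was at -0.26 (-0.82 to 0.29). Counting intervals therefore put CFL2 above both of its relatives, although its mRNA level was the lowest of the 3.

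Of the profilins, which bring monomers to growing ends, the more abundant had the higher ratio. PFN1 had 633 RPKM in the RNC-mRNA library and 426 RPKM in the mRNA library, a ratio of 0.61 (0.56 to 0.66). PFN2, the form best known from neurons, had 72.0 RPKM in the RNC-mRNA library and 62.7 RPKM in the mRNA library, at 0.24 (0.13 to 0.34). The thymosins, which sequester monomers, were near or below the median. TMSB10, with 1676 RPKM in the RNC-mRNA library and 1550.4 RPKM in the mRNA library, was second only to ACTB among the members and had a ratio of 0.15 (0.11 to 0.20). TMSB4X had 109 RPKM in the RNC-mRNA library and 136 RPKM in the mRNA library, at -0.28 (-0.42 to -0.14). CAP1, which recycles cofilin-bound actin, was at 0.16 (0.07 to 0.26).

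Gelsolin, a calcium-regulated protein that severs and caps filaments, had the lowest ratio of this group. GSN had 75.9 RPKM in the RNC-mRNA library and 124 RPKM in the mRNA library, a ratio of -0.67 (-0.75 to -0.60), which is 0.627-fold the median gene. The cofilins and gelsolin both cut filaments, and their mRNAs lay on opposite sides of the median.

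The Arp2/3 complex and capping protein formed the tightest group. All 10 genes, with a list median of 0.35 and a range of 0.17 to 0.51, lay above the median with their counting intervals clear of it. Intervals lay wholly above it for 29.6% of all expressed genes and 58.1% of the 1552 genes of at least 50 RPKM. When the centre was taken from those 1552 genes, which shifts every ratio by -0.17, ARPC2 moved just below the median. With that shift the intervals of ARPC1A and ARPC3 included the median too, since both had lower ends of 0.12. None of the 10 reached 1.5-fold. The complex has 7 subunits, of which the actin-related ACTR2 and ACTR3 form the seed of the new branch. ACTR2 had 54.0 RPKM in the RNC-mRNA library and 38.8 RPKM in the mRNA library, at 0.51 (0.42 to 0.61), and ACTR3 was at 0.50 (0.41 to 0.59). These were the highest ratios of the group, and their intervals lay above those of ARPC1A, ARPC2 and ARPC3. ARPC2, the structural core subunit and the most abundant of the group, had 197 RPKM in the RNC-mRNA library and 180.3 RPKM in the mRNA library, at 0.17 (0.09 to 0.24).

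The ARPC1 position in the complex can be filled by either of 2 related proteins, and both mRNAs were abundant. ARPC1A was at 0.21 (0.12 to 0.30) and ARPC1B at 0.41 (0.31 to 0.52), intervals that met but did not overlap. ARPC3 (0.22), ARPC4 (0.36) and ARPC5 (0.34) fell between. The capping protein subunits CAPZA1 (0.33) and CAPZB (0.40), which act as a dimer, had ratios within each other's counting intervals. CAPZB is paired with a non-coding RefSeq record in the deposited table, although the gene encodes a protein.

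**Figure D3:**
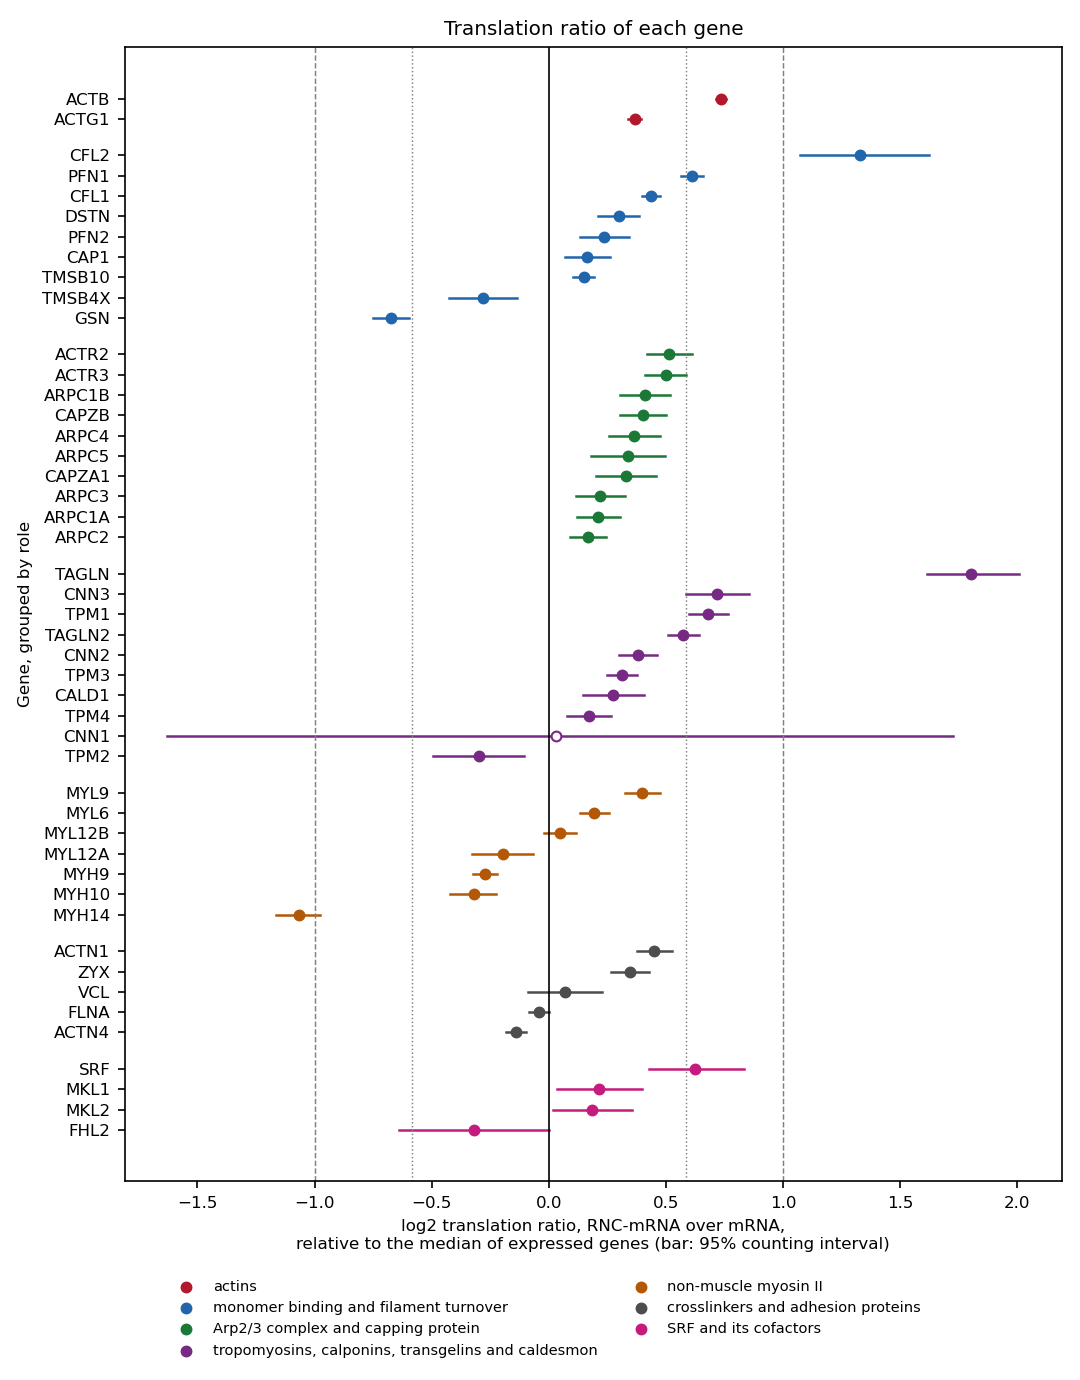
Log2 translation ratio (RNC-mRNA over mRNA, relative to the median of expressed genes) of each of the 47 members by role, with bars for exact 95% counting intervals, dotted lines at 1.5-fold and dashed lines at 2-fold; the open point is CNN1, which is not expressed. The 10 Arp2/3 and capping genes cluster between 0.17 and 0.51, while the myosin heavy chains MYH9, MYH10 and MYH14 all lie left of the median.

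Proteins that coat actin filaments included the highest ratio of all members. TAGLN encodes transgelin (SM22), a calponin-related protein and a classical SRF target of smooth muscle. It had 60.3 RPKM in the RNC-mRNA library and 17.7 RPKM in the mRNA library, a ratio of 1.80 (1.61 to 2.01) or 3.49-fold above the median gene, on at least 1040 RNC-mRNA reads and 265 mRNA reads. Its rank among all genes was 1283 in the RNC-mRNA library and 4397 in the mRNA library. TAGLN2, the form found outside muscle, was far more abundant, with 340 RPKM in the RNC-mRNA library and 234 RPKM in the mRNA library, and had a ratio of 0.58 (0.51 to 0.64). The neuronal TAGLN3 was listed at 0 in both libraries. Whether the smooth muscle and fibroblast marker levels given above have a part in the TAGLN ratio was not tested. Of the 9 expressed markers, 6 had a ratio above the median and 3 below. ACTA2, a smooth muscle actin, had 1.64 RPKM in the RNC-mRNA library and 0.708 RPKM in the mRNA library (1.15, -0.18 to 2.89). The fibroblast markers PDGFRA, a growth factor receptor, at 1.37 (1.08 to 1.79) and LUM, a matrix proteoglycan, at 0.48 (0.23 to 0.73) lay above the median by counting error, while the collagen genes COL1A1, at -0.80 (-0.89 to -0.72), and COL1A2, at -1.03, lay below.

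The calponins, relatives of transgelin that restrain myosin on actin, differed in level far more than in ratio. CNN3 had 55.9 RPKM in the RNC-mRNA library and 34.8 RPKM in the mRNA library, at 0.72 (0.59 to 0.86). CNN2 was at 0.38 (0.30 to 0.46), with 111 RPKM in the RNC-mRNA library and 87.2 RPKM in the mRNA library. The smooth muscle form CNN1 had 0.455 RPKM in the RNC-mRNA library and 0.458 RPKM in the mRNA library, on as few as 8 RNC-mRNA reads and 7 mRNA reads, and its interval of -1.63 to 1.72 leaves its direction undetectable at this depth. CNN1 and TAGLN are both used as smooth muscle markers and both respond to SRF, yet one was barely detected and the other had the top ratio.

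Tropomyosins run along filaments and decide which other proteins may bind. TPM1 had 158 RPKM in the RNC-mRNA library and 101 RPKM in the mRNA library, at 0.68 (0.60 to 0.77). TPM3 was at 0.31 (0.25 to 0.38) and TPM4 at 0.17 (0.08 to 0.27). TPM2 was on the other side, with 28.6 RPKM in the RNC-mRNA library and 36.1 RPKM in the mRNA library, at -0.30 (-0.49 to -0.11), the lowest of this group. The intervals of TPM1 and TPM2 did not overlap each other or those of TPM3 and TPM4. Caldesmon (CALD1), which also binds along filaments, was at 0.27 (0.14 to 0.41). Of the 9 expressed genes of this group, 8 lay above the median under every scaling tried, with a list median of 0.38.

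Non-muscle myosin II, the motor that contracts the actin network, was the group whose median stayed below that of all expressed genes under every scaling tried. Its list median was -0.20, with 3 of 7 genes above, of which MYL12B changed sides under other centres. That median is the ratio of MYL12A, a value that reads shared with MYL12B make uncertain. An interval for the list median spanned the whole range of the group, -1.07 to 0.40, and so included the median of all expressed genes. Summed levels were 1293 RPKM in the RNC-mRNA library and 1233 RPKM in the mRNA library. Of the 7, 1 (14.3%) was at least 1.5-fold below, against 19.7% of all expressed genes, and 0 at least 1.5-fold above, against 7.44%. All 3 heavy chains had counting intervals wholly below the median, as did 30.0% of all expressed genes, and of these chains only MYH14 was at least 1.5-fold below. MYH14 had 18.9 RPKM in the RNC-mRNA library and 40.7 RPKM in the mRNA library, a ratio of -1.07 (-1.16 to -0.98), which is 0.478-fold the median gene. MYH9 had 73.6 RPKM in the RNC-mRNA library and 91.2 RPKM in the mRNA library, at -0.27 (-0.32 to -0.22). MYH10 had 18.7 RPKM in the RNC-mRNA library and 24.0 RPKM in the mRNA library, at -0.32 (-0.42 to -0.22). The interval of MYH14 lay wholly below those of the other heavy chains, whose intervals overlapped.

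Most light chains of the same motor had higher ratios than its heavy chains. MYL9, a regulatory light chain, had 280 RPKM in the RNC-mRNA library and 218 RPKM in the mRNA library, at 0.40 (0.33 to 0.47). MYL6, the essential light chain and the most abundant of the group, had 513 RPKM in the RNC-mRNA library and 461 RPKM in the mRNA library, at 0.19 (0.13 to 0.26). MYL6B, a close relative outside the members, was at -0.07 (-0.23 to 0.10). The near-identical regulatory chains MYL12A and MYL12B were at -0.20 (-0.33 to -0.07) and 0.05 (-0.02 to 0.12), and reads they share make both values uncertain. The interval of MYL12A overlapped those of MYH9 and MYH10, so their order is within counting error, while the other 3 light chains of the members lay above all 3 heavy chains by more than counting error. The heavy-chain transcripts were also among the longest, at 6912 to 7762 nt, and whether length has a part in their ratios was not tested. The 8 expressed members with a transcript over 5000 nt had a median ratio of 0.01, and the 31 shorter ones had 0.30. The RPKM values can fit more than 1 length, and the length nearest a reference transcript was taken. For CFL2, ACTR3 and VCL, which are among these 8, a shorter length fits the values too, so the length results depend on that choice. Over all expressed genes with a recovered length, those over 5000 nt had a median of -0.00 and the shorter ones 0.01. Over the 39 expressed members with a recovered transcript length, Spearman's rank correlation between length and ratio was -0.05, and over 11644 expressed genes it was 0.03. Both are correlations across genes of the same pair of libraries and are given as a description.

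Crosslinkers and adhesion proteins stayed close to the median, from -0.14 to 0.45, and their list median of 0.07 fell below 0 with a centre from genes of at least 50 RPKM (-0.10), from genes of at least 5 RPKM (-0.01) or from the 75th percentile of levels. The 2 non-muscle alpha-actinins, which bundle filaments, lay on opposite sides. ACTN1 had 89.1 RPKM in the RNC-mRNA library and 66.9 RPKM in the mRNA library, at 0.45 (0.38 to 0.53). ACTN4 had 189 RPKM in the RNC-mRNA library and 214 RPKM in the mRNA library, at -0.14 (-0.18 to -0.10). Zyxin (ZYX), a focal adhesion protein, was at 0.35 (0.26 to 0.43). The intervals of filamin A (FLNA, -0.04, -0.08 to 0.00) and vinculin (VCL, 0.07, -0.09 to 0.23) included the median, and both changed sides under at least 1 other centre. VCL and FLNA are SRF targets too, so sharing that regulator went with ratios from -0.32 to 1.80.

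SRF and its cofactors were the least abundant group. SRF itself had 22.7 RPKM in the RNC-mRNA library and 15.1 RPKM in the mRNA library, a ratio of 0.63 (0.43 to 0.83) or 1.54-fold above the median gene. The coactivators were nearer the median, MKL1 with 11.7 RPKM in the RNC-mRNA library and 10.3 RPKM in the mRNA library at 0.22 (0.04 to 0.40), and MKL2 with 6.96 RPKM in the RNC-mRNA library and 6.28 RPKM in the mRNA library at 0.18 (0.02 to 0.35). FHL2, a LIM protein that is both an SRF partner and an SRF target, had 15.1 RPKM in the RNC-mRNA library and 19.4 RPKM in the mRNA library, at -0.32 (-0.64 to -0.00). Of the ETS-type partners that compete with MKL1 for SRF, ELK1 had 18.1 RPKM in the RNC-mRNA library and 10.9 RPKM in the mRNA library, at 0.75 (0.47 to 1.05). ELK4 was low, at -0.83 (-1.15 to -0.61), and ELK3 was at -0.31.

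Taken by regulator, 16 of the members are listed as SRF targets from general knowledge and 15 of these were expressed. The list was drawn up with earlier results of these data known, so this split is a description and not independent support. Of the 15, 11 lay above the median and 4 below, with a median ratio of 0.37, and 4 (ACTB, TAGLN, TPM1 and SRF, 26.7%) were at least 1.5-fold above, against 7.44% of all expressed genes. Of the 31 expressed members outside that list, 25 lay above and 6 below, with a median of 0.22, and 3 (PFN1, CFL2 and CNN3, 9.68%) were at least 1.5-fold above, a share near that of all expressed genes. SRF targets outside the members reached higher. Of 22 such genes 15 were expressed, with 10 above and 5 below the median and a list median of 0.75. Of the 15, 6 (40.0%) were at least 2-fold above, against 1.37% of all expressed genes, and 0 at least 2-fold below, against 11.8%. EGR1 (4.10) led, followed by CYR61 (2.09, 1.69 to 2.61), FOS (2.08), JUNB (1.30, 1.05 to 1.57), ANKRD1 (1.30, 0.30 to 2.57) and ACTA2 (1.15, -0.18 to 2.89). TGFB1I1 was lowest at -0.34. Without immediate early factors of the EGR, FOS and JUN families and IER2, 11 expressed genes were left with a median of 0.21. Of the 11, 3 (CYR61, ANKRD1 and ACTA2, 27.3%) were at least 2-fold above, against 1.37% of all expressed genes. ANKRD1 rested on as few as 29 RNC-mRNA reads and 10 mRNA reads. ACTA2 rested on as few as 16 RNC-mRNA reads and 6 mRNA reads, and its interval included the median. The TAGLN ratio of 1.80 lay between those of FOS and JUNB, and the other SRF targets among the members lay below all 6 of the genes past 2-fold.

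Outside the members, the nucleators, elongators and branching regulators were centred on the median (-0.00 over 21 genes, 10 above and 11 below). Of the 21, 1 (4.76%) was at least 1.5-fold above, against 7.44% of all expressed genes, and 1 (4.76%) at least 1.5-fold below, against 19.7%. They ran from the formin FMNL3 (-0.70) to ABI1 of the WAVE complex (0.63), with the abundant cortactin gene CTTN at -0.34.

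Among other filament-binding proteins, both spectrins had ratios below that of the lowest member. Of 33 expressed genes, 22 lay above the median, 2 at least 1.5-fold above (6.06%, against 7.44% of all expressed genes) and 7 at least 1.5-fold below (21.2%, against 19.7%), so both shares were near those of all genes. The list had a median of 0.13 that turned to -0.04 with a centre from genes of at least 50 RPKM. The spectrins, of the membrane skeleton, were lowest. SPTBN1 had 8.61 RPKM in the RNC-mRNA library and 31.7 RPKM in the mRNA library, at -1.83 (-1.95 to -1.74). SPTAN1 had 18.4 RPKM in the RNC-mRNA library and 47.7 RPKM in the mRNA library, at -1.33 (-1.42 to -1.25). The bundling protein fascin (FSCN1) was highest at 0.90 and the abundant PDLIM1 was at 0.22.

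**Figure D4:**
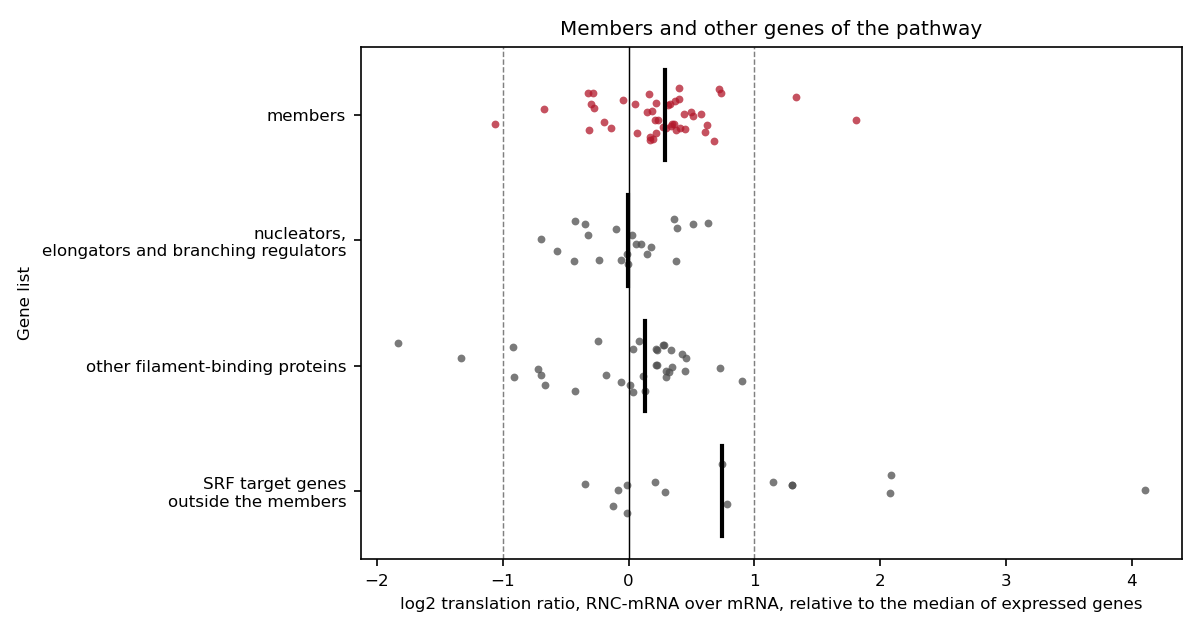
Log2 translation ratio (RNC-mRNA over mRNA, relative to the median of expressed genes) of each expressed gene among the members and in 3 lists of related genes, with a black bar at each list's median and dashed lines at 2-fold; vertical scatter within a row has no meaning. The members' median is 0.29, those of the nucleators and of the other filament-binding proteins are -0.00 and 0.13, and the SRF targets outside the members have a median of 0.75 with EGR1 far to the right.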

How the data were processed

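Polyadenylated RNA from Caco-2 cells was sequenced as 1 RNC-mRNA and 1 mRNA library. The deposited values are RPKM, computed by the authors, per the file headers, for 1 RefSeq record per gene; the build was hg19, per the submitters' processing notes. The aligner, the counter and the handling of shared reads are not given in the sources used here.

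Ratios were log2((RNC-mRNA + 0.1) / (mRNA + 0.1)) minus the median of expressed genes (mean RPKM of at least 1). The pseudocount understates the ratios of low genes. Candidate totals for each library were integers that gave genes of known length (GENCODE 29) whole reads within rounding of 7 digits. A multiple of a total can fit as well, so the best integer next to the smallest well-fitting candidate was taken. It fitted 2345 genes, against 1655 at the next best total within 10% of it, for RNC-mRNA, and 2591 against 1750 for mRNA. The smallest read numbers giving both values, with a relative error of 2e-07 allowed, gave the Clopper-Pearson intervals, after a check on simulated data. Folds of 1.5 and 2 served as rules of size, since 1 library per group allows no test. Transcript lengths were those within 10% of a GENCODE transcript. Promoter windows came from RefSeq. The members and lists were chosen with earlier results of these data known. Genes named are members at least 1.5-fold from the median, the most abundant, highest and lowest of each group, and others needed to account for every member; of the related lists, the most abundant, highest, lowest and up to 4 others past 2-fold, with relatives of members added after their values were seen. A further list of regulators is not reported here. Alternatives were other pseudocounts, filters, centres, a read minimum, leaving out members with many pseudogenes, and 1 mismatch in the CArG box. Python 3.11.15, pandas, NumPy and SciPy were used.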

Additional observations from a re-analysis of the deposited data

How the results depend on the processing

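Over the pseudocounts, filters, centres and exclusions tried, the median ratio of the members stayed above 0, between 0.11 and 0.38. A centre from genes with a mean of at least 50 RPKM, which shifts every ratio by -0.17, gave a median of 0.11 and left 2 members at least 1.5-fold above. Using every gene with a read, which shifts every ratio by 0.10, left 1 member (MYH14, at -0.96) at least 1.5-fold below, 0 past 2-fold below and 10 at least 1.5-fold above. TAGLN and CFL2 stayed at least 2-fold above throughout. Allowing 1 mismatch, a CArG box lay in 40.5% of members and 22.3% of all genes with a window. Of 517 single-gene values under these alternatives, 414 stayed within their counting interval. No paired analysis was possible because each group has 1 library. Leaving out a library was likewise impossible.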
